A study of Mus musculus with 2 samples.

Results

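Laminins, integrins and the proteins that tie laminin into basement membranes are described here. The genes are the laminin alpha, beta and gamma chains, the integrin alpha and beta chains, nidogen 1 and 2 (Nid1, Nid2), perlecan (Hspg2) and agrin (Agrn). They were taken by name from the gene names of the array's non-control probes, which gave 41 genes of 37074. For each gene the brightest probe without a short tandem repeat was used, a choice that reads brightness on both arrays but not the difference between them. Of the 41 genes, 29 had such a probe well above background on both arrays and are called measured. A further 1 passed that limit on the Dock8-/- array alone, 6 on the Dock8+/- array alone and 5 on neither.

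The study compared neurons of the dorsal root ganglia (DRG), which hold the cell bodies of sensory neurons, between Dock8-/- and Dock8+/- mice. Both groups are C57BL/6 mice that carry the (tcr)AND transgene, a T cell receptor transgene. The label of the Dock8-/- sample gives a high level of IL-31, an itch cytokine, and that of the Dock8+/- sample a low level. Each genotype has 1 single-colour array, so every difference below is between 2 arrays, with no replicate check and no test. The control mice are heterozygous, and no wild-type or transgene-free mice are among the samples. The labels give neither the age of the mice nor how many animals gave RNA to a sample.

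Laminins are cross-shaped trimers of an alpha, a beta and a gamma chain that polymerise into the sheet of a basement membrane. Nidogens bridge that sheet to the collagen IV network, while perlecan and agrin are large heparan sulphate proteoglycans anchored in it. Integrins are paired alpha and beta chains in the cell membrane that bind laminin, collagen or other ligands and connect them to the cytoskeleton. In ganglia and nerves, basement membranes surround Schwann cells with their axons, satellite glia with the neurons they wrap, perineurial cells and blood vessels.

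The arrays differed in overall brightness, with a 75th percentile of processed intensity, the background-corrected brightness of a probe, of 145.6 for Dock8-/- and 303.8 for Dock8+/-. Each array's 75th percentile was subtracted on the log2 scale, so a gene at the same scaled level on both arrays reads dimmer on the Dock8-/- array by that ratio. Differences below are Dock8-/- minus Dock8+/- on this scaled log2 scale, and 2-fold is used only to describe size. Of the member genes' 103 probes, 55 (53.4%) were bright enough in Dock8-/- to lie well above background, and 66 (64.1%) in Dock8+/-. Repeat spots scattered little: over 299 probes with 10 spots, the SD (root mean square, log2) was 0.0535 for Dock8-/- and 0.0438 for Dock8+/-. Both arrays lay on 1 slide and were read in 1 scan. Dock8 gives no check of the genotypes, since 4 of its 5 probes were below that limit on both arrays and the other had 6.87, not well above background, in Dock8-/- and 20.5 in Dock8+/-. All 15 pan-neuronal markers were measured, with a median difference of 0.12, but markers of satellite glia, Schwann cells, fibroblasts and macrophages were measured too, so the RNA is not from neurons alone.

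Over the measured genes, 11 of 29 (37.9%) were at least 2-fold lower in Dock8-/- than in Dock8+/-, where 7.18% of all 18209 measured genes were that much lower. In the other direction, 1 of 29 (3.45%) was at least 2-fold higher, against 8.56% of all measured genes. The 11 lower genes were Itga11, Itgb3, Lama1, Itgb7, Nid1, Itga9, Itga4, Itgb4, Lama4, Nid2 and Itgb5, and the higher one was Itga10. Among these genes, only Lama4 and Nid1 had more than 1 repeat-free probe measured on both arrays. The median difference of the 29 genes was -0.41, beside 0.02 over all measured genes, and 22 of 29 (75.9%) lay below 0, beside 48.8% of all. In RNA of mixed cells, fewer cells of a type and less RNA per cell cannot be told apart.

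**Figure D1:**
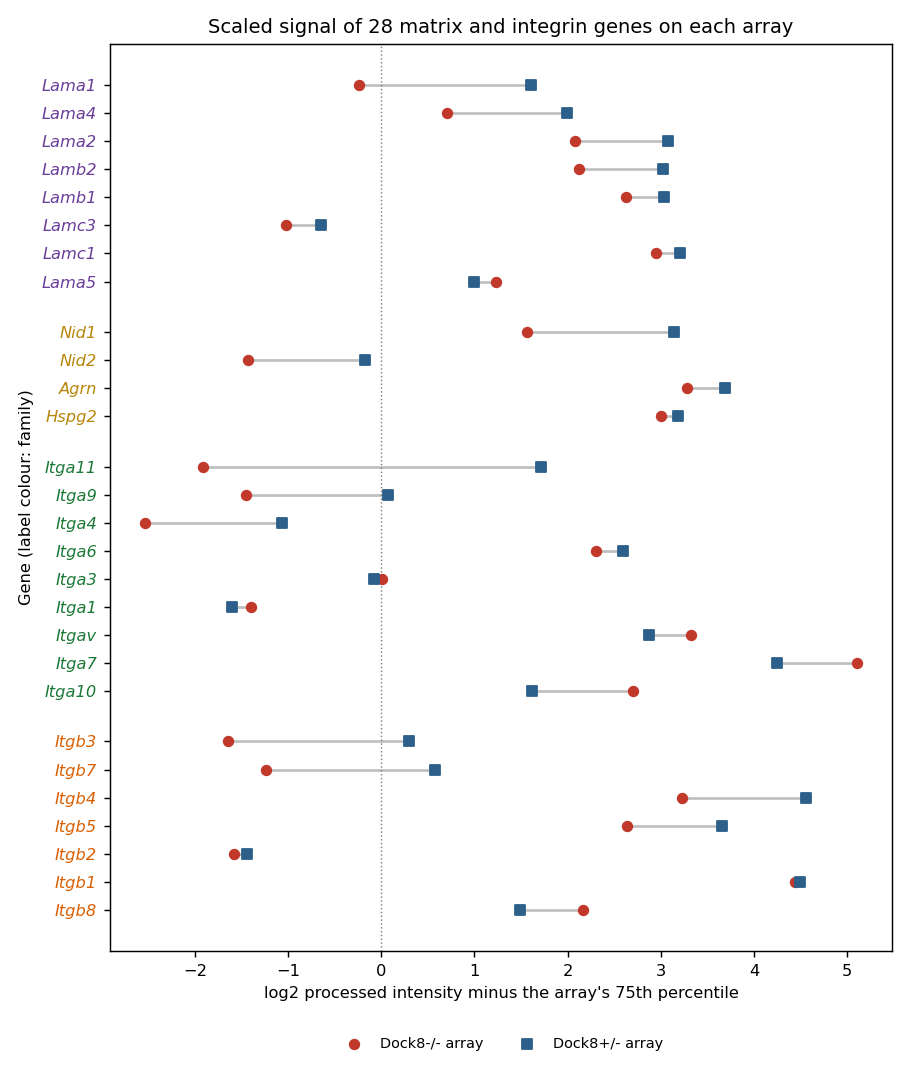
Scaled signal of 28 of the 29 measured genes on the Dock8-/- array (circles) and the Dock8+/- array (squares), as log2 processed intensity minus the array's 75th percentile (x axis), with 1 point per array and genes grouped by family. Itga11 shows the widest gap, at -1.92 in Dock8-/- and 1.72 in Dock8+/-, and Itga10 stands at 2.70 in Dock8-/- and 1.61 in Dock8+/-.

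Of the laminin genes, 9 of 11 were measured, 8 of these lay below 0, and 2 were at least 2-fold lower. With the mean of a gene's probes, 6 of the 9 lay below 0 and 1 was at least 2-fold lower. Lama1, the alpha chain of embryonic basement membranes, read 123.1 in Dock8-/- and 922.1 in Dock8+/-, a difference of -1.84 or 3.59-fold lower. Lama4, the alpha chain of vascular and perineurial basement membranes, read 236.9 in Dock8-/- and 1212 in Dock8+/-, a difference of -1.29. Its 3 other measured probes lay at -0.32, 0.01 and 1.08, and the mean of its probes, at -0.13, is not 2-fold lower. Lama2, the alpha chain around Schwann cells and muscle fibres, whose loss causes muscular dystrophy with a neuropathy, read 616.2 in Dock8-/- and 2566 in Dock8+/-, a difference of -0.996 that falls just short of 2-fold. Its 3 other measured probes lay at -0.32, -0.26 and -0.05, and the mean of its probes at -0.41. Lama5, the widely expressed alpha chain of mature basement membranes, was the exception among the brightest laminin probes: it read 342.2 in Dock8-/- and 604.9 in Dock8+/-, which after scaling is a difference of 0.24.

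On their brightest probes, Lamb1, Lamb2, Lamc1 and Lamc3 stood closer to 0 than Lama1 and Lama4. Lamb2, the beta chain of synaptic and kidney basement membranes, read 635.8 in Dock8-/- and 2471 in Dock8+/-, a difference of -0.90. Lamb1, the beta chain of most other laminins, read 897.1 in Dock8-/- and 2484 in Dock8+/-, a difference of -0.41. These 2 were the measured beta chains, with a median of -0.65. Lamc1, the gamma chain of nearly all laminins, read 1120.2 in Dock8-/- and 2801 in Dock8+/-, a difference of -0.26. Lamc3, a gamma chain known from retina and brain, read 71.8 in Dock8-/- and 193.4 in Dock8+/-, a difference of -0.37. The 4 measured alpha chains had a median of -1.14, also on the brightest probes. That order depends on the probe choice. With the mean of probes, Lama4 lay at -0.13 and Lama2 at -0.41, closer to 0 than Lamb2 at -0.90, while Lamb1 lay at 0.01. Lama3 and Lamb3, chains of epithelial basement membranes, were not measured on both arrays: Lama3 read 22.4 on the Dock8+/- array and was not well above background in Dock8-/- (3.55), and Lamb3 was well above background on neither array.

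Among the linkers, all 4 were measured and all 4 lay below 0, but by unequal amounts. Nid1, which binds both the laminin gamma1 chain and collagen IV, read 429.9 in Dock8-/- and 2680 in Dock8+/-, a difference of -1.58 or 2.99-fold lower, against -0.93 for the mean of its probes. Nid2, its paralog, read 53.9 in Dock8-/- and 269.6 in Dock8+/-, a difference of -1.26 or 2.40-fold lower, against -0.73 under normexp background correction. The 2 proteoglycans differed less. Agrn, which organises acetylcholine receptors at the neuromuscular junction and also binds laminin, read 1409 in Dock8-/- and 3920.4 in Dock8+/-, a difference of -0.41. Hspg2, the gene of perlecan, read 1163 in Dock8-/- and 2761 in Dock8+/-, a difference of -0.19.

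Integrin chains are given by kind. Of the beta chains, 7 of 8 were measured, 4 were at least 2-fold lower and the median was -1.03. Of the alpha chains, 9 of 18 were measured, 3 were at least 2-fold lower, 1 was at least 2-fold higher, and the median was 0.08. That median is -0.23 when the mean of a gene's probes replaces the brightest.

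The laminin-binding alpha chains stood on both sides of 0, and none of the 3 reached 2-fold. Itga7, a laminin receptor of skeletal muscle that also occurs on peripheral neurons and Schwann cells, read 5001 in Dock8-/- and 5778 in Dock8+/-, a difference of 0.85. Its other probe, which reads an upstream stretch of the same transcript, lay at -0.75, with 55.8 in Dock8-/- and 195.2 in Dock8+/-. Itga6, which pairs with beta1 or with the hemidesmosomal beta4 chain, read 717.2 in Dock8-/- and 1830 in Dock8+/-, a difference of -0.29, while its other probes ranged from -1.09 to 0.19. Itga3, a laminin receptor of epithelia and of many neurons, read 145.9 in Dock8-/- and 288.8 in Dock8+/-, a difference of 0.08. Their beta partners differed from each other as well. Itgb1, the partner of most of these alpha chains, read 3162 in Dock8-/- and 6844 in Dock8+/-, a difference of -0.05, and it lay above 0 under quantile normalisation and in the authors' value table. Itgb4, the long beta chain of hemidesmosomes that perineurial and Schwann cells also carry, read 1366 in Dock8-/- and 7135 in Dock8+/-, a difference of -1.32 or 2.50-fold lower.

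The collagen receptors held the extremes in both directions. Itga11, a receptor for fibrillar collagen on fibroblasts, read 38.5 in Dock8-/- and 998.9 in Dock8+/-, a difference of -3.63 or 12.4-fold lower (mm9 chr9:62631667-62631726, plus strand). Its size depends on the background correction, with -2.53 under normexp. Itga10, a collagen receptor known from cartilage, read 943.2 in Dock8-/- and 929 in Dock8+/-, a difference of 1.08 or 2.12-fold higher. Under normexp Itga10 stood at 0.84, short of 2-fold, and on the scale of the spike-in transcripts it was lower, at -0.79. Itga1, a receptor for collagen IV and for laminin, read 55.3 in Dock8-/- and 99.96 in Dock8+/-, a difference of 0.21. Itga2, a collagen receptor of platelets and epithelia, was well above background on neither array.

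Beside the 12.4-fold lower Itga11 stand the fibroblast markers, of which 11 of 12 were measured. Of these 11, 9 were at least 2-fold lower and all 11 lay below 0, with a median of -2.26. Their summed signal, in units of each array's 75th percentile, was 358.3 in Dock8-/- and 1110.1 in Dock8+/-. Col1a1, a chain of the main fibrillar collagen, read 631.3 in Dock8-/- and 10007 in Dock8+/-, a difference of -2.92. Their part in the results for the matrix and integrin genes was not tested.

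The chains that pair with the alphaV chain went different ways. Itgav itself, the shared alpha chain of receptors for vitronectin, fibronectin and latent TGF-beta, read 1454 in Dock8-/- and 2225 in Dock8+/-, a difference of 0.45. Itgb3, which also pairs with the platelet alphaIIb chain, read 46.7 in Dock8-/- and 374.1 in Dock8+/-, a difference of -1.94 or 3.84-fold lower, and of -1.22 under normexp. Itgb5, the beta chain of a vitronectin receptor, read 902.7 in Dock8-/- and 3841 in Dock8+/-, a difference of -1.03 or 2.04-fold lower. Under quantile normalisation, loess, the authors' value table and the 75th percentile of detected probes, Itgb5 lay just short of 2-fold, between -0.998 and -0.979. Itgb8, which as a partner of alphaV serves the activation of TGF-beta, read 650.9 in Dock8-/- and 852.8 in Dock8+/-, a difference of 0.67. All 3 measured Itgb8 probes lay above 0, from 0.67 to 0.91. Itga2b and Itgb6 were well above background on neither array. Of the 9 platelet markers, 1 was measured on both arrays, Pf4, at 100.2 in Dock8-/- and 4580 in Dock8+/-. Another 4 were read in Dock8+/- alone, and 1, Gp6, in Dock8-/- alone, at least 2.60-fold higher. Their part in the Itgb3 value was not tested.

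The other RGD-binding alpha chains, named for the short peptide motif they bind, were near the detection limit. Itga5, the main fibronectin receptor chain, read 35.2 on the Dock8+/- array and was not well above background in Dock8-/- (6.26), which bounds it at least 1.05-fold lower. Itga8, which binds nephronectin, read 38.9 on the Dock8+/- array and was not well above background in Dock8-/- (14.7), which bounds it at least 1.16-fold lower. For a gene read on 1 array only, the bound divides the bright value by the dim probe's value or by the array's detection limit, whichever is higher. That limit, the dimmest probe still well above background, was 16.1 for Dock8-/- and 17.4 for Dock8+/-, before scaling. These bounds are small, so the depth of the Dock8-/- array does not show how much lower the genes were.

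Chains of leukocyte integrins, given here with Itga4 and Itga9, were mostly dim, and those that were read did not share a direction. Itgb7, the beta chain of the gut-homing and mucosal lymphocyte integrins, read 61.7 in Dock8-/- and 451.7 in Dock8+/-, a difference of -1.81 or 3.51-fold lower, and of -1.20 under normexp. Its partner Itga4, which binds VCAM-1 and fibronectin, read 25.2 in Dock8-/- and 145.7 in Dock8+/-, a difference of -1.47 or 2.77-fold lower, but of -0.36 under normexp background correction. Itga9, a close relative of Itga4 that binds tenascin-C and osteopontin, read 53.1 in Dock8-/- and 318.3 in Dock8+/-, a difference of -1.52 or 2.87-fold lower, and of -0.92 under normexp. Itgb2, the common beta chain of the leukocyte-specific integrins, read 48.7 in Dock8-/- and 111.6 in Dock8+/-, a difference of -0.14 that turns to 0.20 under normexp background correction. The other alpha chains of leukocyte integrins, Itgae, Itgax, Itgal, Itgad and Itgam, were each read on 1 array at most.

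Itgae, the alpha chain of epithelium-resident T cells, read 82.0 on the Dock8+/- array against 16.4, not well above background, in Dock8-/-, and is at least 2.40-fold lower. Itgax, a chain of dendritic cells and macrophages, read 50.7 on the Dock8+/- array and 7.95, not well above background, in Dock8-/-, and is at least 1.51-fold lower. Itgal, the lymphocyte chain of LFA-1, read 28.5 on the Dock8+/- array and was not well above background in Dock8-/- (15.6), and no bound above 1 follows. Of the 6 genes read on the Dock8+/- array only, 1 (Itgae) was thus at least 2-fold lower by its bound, where 17.6% of all 2525 such genes were. Itgad, a beta2 partner of macrophages, went the other way: it read 69.2 on the Dock8-/- array and 9.22, not well above background, in Dock8+/-, at least 8.32-fold higher. Its other probe had 26.1 in Dock8-/- and 3.64, not well above background, in Dock8+/-. Array-wide, 503 genes were read in Dock8-/- alone, and 99.0% of them were 2-fold or more higher by their bound. That share follows largely from the detection limits and the scaling. The limit was 16.1 beside a 75th percentile of 145.6 in Dock8-/-, and 17.4 beside 303.8 in Dock8+/-. This offset raises bounds for genes read in Dock8-/- alone and lowers them for genes read in Dock8+/- alone, so the 99.0% and the 17.6% cannot be compared. Itgam, the chain of macrophages and neutrophils, was well above background on neither array with its repeat-free probe.

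Macrophage and monocyte markers were lower beside these genes: 13 of 15 were measured, 11 of the 13 were at least 2-fold lower, and the median was -1.52. Their summed signal was 42.1 in Dock8-/- and 153.9 in Dock8+/-, in units of the 75th percentile. Ptprc, the pan-leukocyte antigen CD45, read 35.1 in Dock8-/- and 265.2 in Dock8+/-. Neutrophil markers were mixed, with 9 of 10 measured, 2 of the 9 at least 2-fold higher and 0 lower, and a median of 0.28. The remaining marker, Mmp9, was read on the Dock8+/- array only and is at least 2.15-fold lower by its bound. Their summed signal was 179.5 in Dock8-/- and 121.2 in Dock8+/-. Csf3r was the brightest gene in that sum, at 19926 in Dock8-/- and 26171 in Dock8+/-. Of the 10 T and NK cell markers, 3 were measured, with a median of 0.34, and 5 were read on the Dock8+/- array only. The part of these immune cell lists in the integrin values was not tested.

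**Figure D2:**
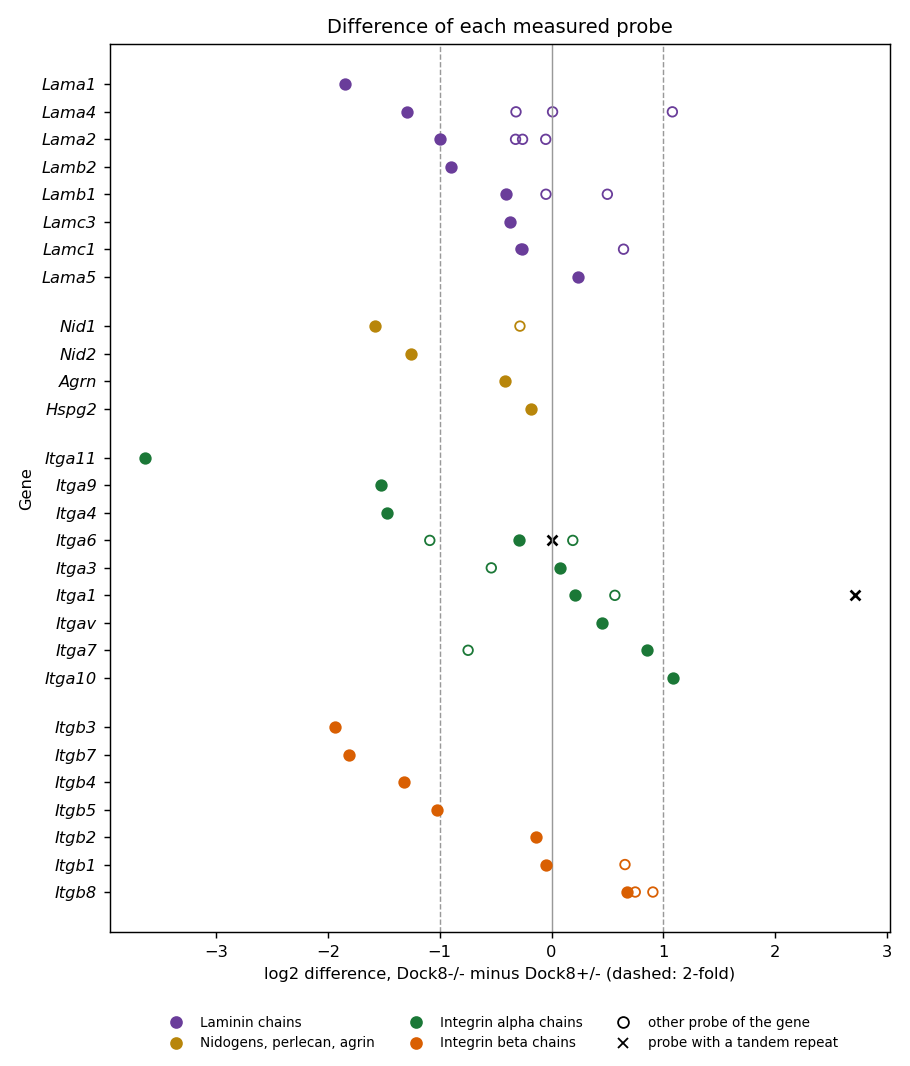
Scaled log2 difference, Dock8-/- minus Dock8+/- (x axis), of each measured probe of 28 of the 29 genes, with filled points for the brightest repeat-free probe, open points for a gene's other probes, crosses for probes with a tandem repeat and dashed lines at 2-fold. Itga11 lies farthest below 0 at -3.63, Itga10 is the only gene whose brightest repeat-free probe passes 2-fold upward at 1.08, and the probes of Lama4 spread from -1.29 to 1.08.

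**Figure D3:**
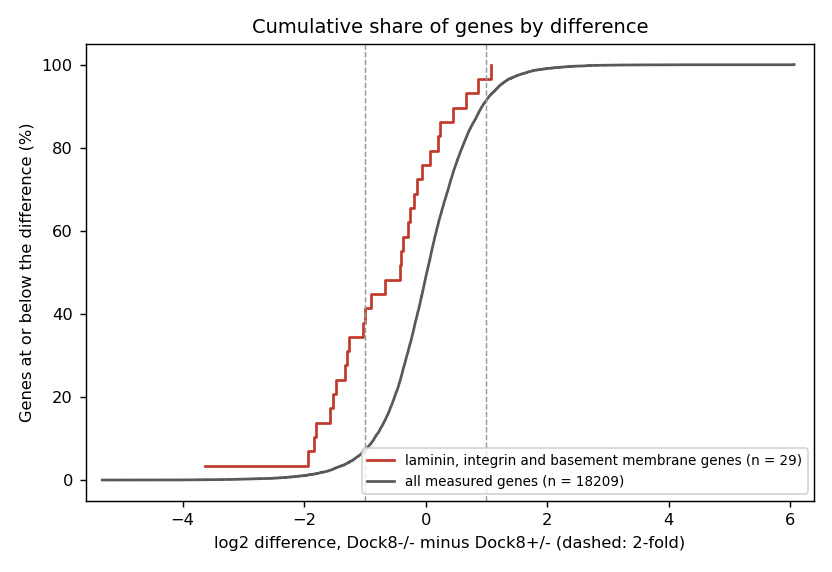
Cumulative share (y axis, percent) of genes at or below each scaled log2 difference, Dock8-/- minus Dock8+/- (x axis), for the 29 measured laminin, integrin and linker genes and for all 18209 measured genes. The curve of the 29 genes lies to the left over most of its course, with medians of -0.41 and 0.02.

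Several genes carry more than 1 probe, and their probes did not always lie on the same side of 0. Of the 48 repeat-free member probes measured on both arrays, 32 lay below 0. Past 2-fold were 12 lower and 2 higher probes, where 7.17% of all 26860 repeat-free measured probes were that much lower and 11.3% higher. Of the 11 genes with more than 1 such probe, 4 had all probes in 1 direction (Itga1, Itgb8, Lama2 and Nid1) and 7 had probes in both. With the mean of a gene's probes, Lamb1, Lamc1 and Itgb1 lay above 0 and Itga3 below 0.

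For 5 genes whose probes differ in size or direction, and for Itga1 with its chosen and its repeat probe, those probes are shown that cross an exon junction, meaning that the mm9 span given in the files is longer than the 60 bases of the probe. Whether they lie in coding or untranslated sequence was not determined here. Capitals mark a tandem repeat, and probes without one are in lower case. Each is printed as the scanner files give it, 5′ to 3′.
Lamb1: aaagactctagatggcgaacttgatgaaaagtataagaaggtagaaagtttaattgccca
Lamc1: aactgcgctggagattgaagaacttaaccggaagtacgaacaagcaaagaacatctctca
Nid1: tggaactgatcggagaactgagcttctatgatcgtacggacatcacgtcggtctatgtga
Itgb1: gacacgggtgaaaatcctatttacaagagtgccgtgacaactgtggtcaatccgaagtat
Itga3: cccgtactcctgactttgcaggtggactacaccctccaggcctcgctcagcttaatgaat
Itga1: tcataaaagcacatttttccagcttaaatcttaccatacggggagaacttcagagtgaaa
Itga1, probe with a GA repeat: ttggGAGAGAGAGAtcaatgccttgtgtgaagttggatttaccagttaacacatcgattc

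The Lamb1 junction probe (mm9 chr12:32012684-32014030, plus strand) had 313.7 in Dock8-/- and 677.6 in Dock8+/-, a difference of -0.05, against -0.41 for the brightest Lamb1 probe and 0.50 for the third. The Lamc1 junction probe (chr1:155077970-155078896, minus strand) had 373.7 in Dock8-/- and 499.1 in Dock8+/-, a difference of 0.64. The 2 other measured Lamc1 probes overlap each other with starts 2 bases apart and read alike, at -0.26 and -0.27, so they amount to 1 reading. The Nid1 junction probe (chr13:13530138-13555992, plus strand) lies near the transcript's 5′ end and had 32.1 in Dock8-/- and 81.4 in Dock8+/-, a difference of -0.28 against -1.58 for the brightest. The Itgb1 junction probe (chr8:131250081-131255976, plus strand) had 598.9 in Dock8-/- and 792.6 in Dock8+/-, a difference of 0.66 against -0.05. For Itga3 the order was the opposite: the junction probe (chr11:94915485-94917062, minus strand) had 31.7 in Dock8-/- and 96.1 in Dock8+/-, a difference of -0.54 against 0.08.

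Both Itga1 probes are from 1 transcript, starting at its bases 3710 and 683, and the second holds 5 GA units. The chosen probe (chr13:115756765-115758419, minus strand) gave the difference of 0.21, while the GA probe (chr13:115821387-115825525, minus strand) had 299.3 in Dock8-/- and 95.3 in Dock8+/-, a difference of 2.71. Across the array, the 134 measured probes with at least 4 GA units had a median difference of 1.23 and 54.5% of them were at least 2-fold higher, against a median of 0.08 and 11.3% for the 26860 measured probes without a tandem repeat. Keeping the repeat probes would therefore put Itga1 among the 2-fold higher genes, and Itgam too, whose CA-repeat probe read 10837 in Dock8-/- and 11048 in Dock8+/-.

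The laminin network's partners were read from companion lists. Of the 8 basement membrane collagens, all 8 were measured, 4 were at least 2-fold lower, 1 was as much higher, and the median was -0.93. Col4a5 and Col4a6, chains of specialised collagen IV networks, differed by -1.60 and -1.48, and Col4a2, a chain of the ubiquitous network, read 142 in Dock8-/- and 639.1 in Dock8+/-, a difference of -1.11. Col4a3, a chain known from the kidney glomerulus, was the 1 higher gene, at 43.2 in Dock8-/- and 42.3 in Dock8+/-, a difference of 1.09. Of 16 other basement membrane proteins, 9 were measured, 5 were at least 2-fold lower, 0 were higher and the median was -1.17. Smoc2, a calcium-binding matrix protein related to SPARC, read 2123 in Dock8-/- and 22023 in Dock8+/-, a difference of -2.31. Egflam, the gene of pikachurin, a dystroglycan ligand, read 21.5 in Dock8-/- and 240.9 in Dock8+/-, a difference of -2.42.

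Ligands that integrins bind outside basement membranes were also lower in part: 15 of 17 were measured, 7 were at least 2-fold lower, 0 were at least 2-fold higher, and the median was -0.94. Thbs1, the gene of thrombospondin 1, read 51.1 in Dock8-/- and 831.5 in Dock8+/-, a difference of -2.96 or 7.80-fold lower. Tgfbi, a TGF-beta-induced matrix protein, read 1309 in Dock8-/- and 13027 in Dock8+/-, a difference of -2.25. Fbn1, the gene of the microfibril protein fibrillin 1, read 164.4 in Dock8-/- and 1603 in Dock8+/-, a difference of -2.22.

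Among the companion lists, the non-integrin matrix receptors and the integrin adaptors differed less. This does not extend to the integrins themselves, of which 7 of 16 measured were at least 2-fold lower. Of 24 genes of the dystroglycan complex and other non-integrin matrix receptors, 21 were measured, 3 were at least 2-fold lower, 0 were at least 2-fold higher, and the median was 0.06. The lower ones were Ddr2, a receptor tyrosine kinase for fibrillar collagen (-1.43), Sgce, a sarcoglycan (-1.09), and Sdc2, a heparan sulphate proteoglycan of the cell surface (-1.002). Cd44, the hyaluronan receptor, read 816.9 in Dock8-/- and 856.5 in Dock8+/-, a difference of 0.99. Of 29 integrin adaptors and focal adhesion proteins, 25 were measured and 0 passed 2-fold in either direction, with a median of -0.32. The widest among them was Ptk2, the gene of focal adhesion kinase, at 244 in Dock8-/- and 259.7 in Dock8+/-, a difference of 0.97.

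**Figure D4:**
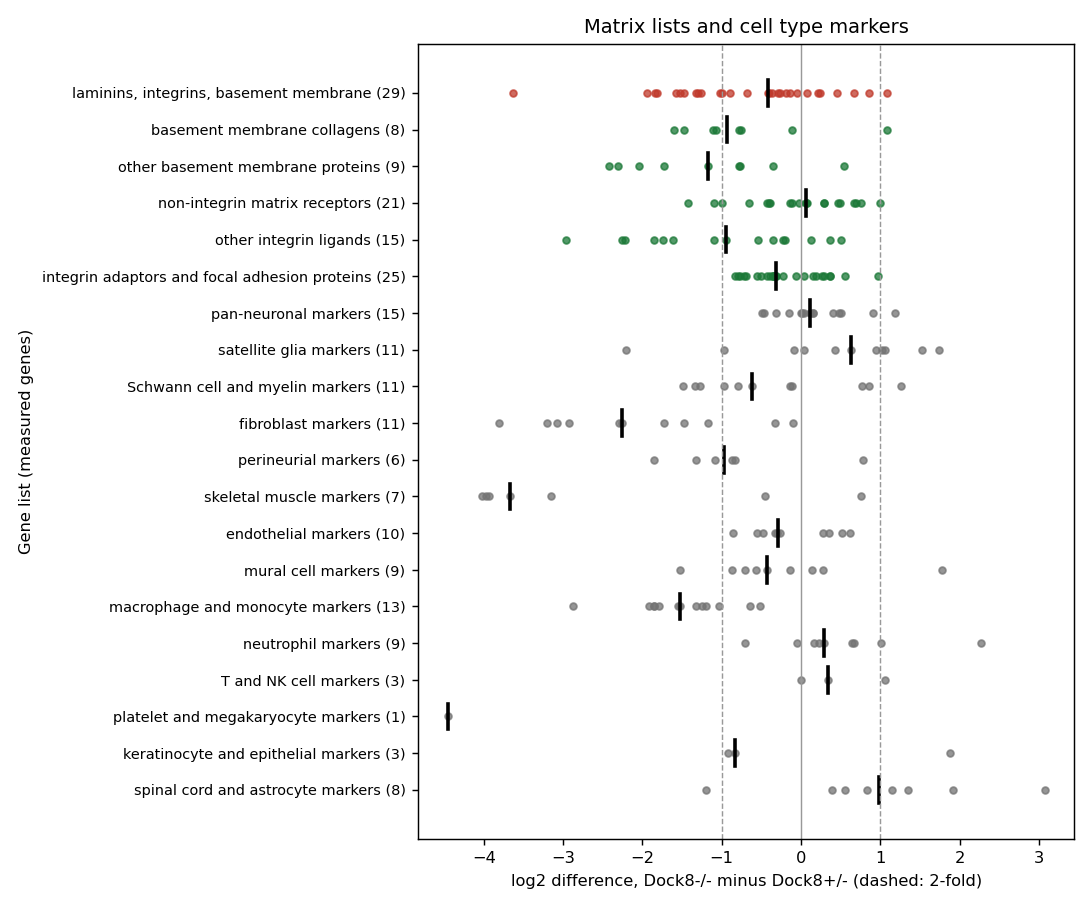
Scaled log2 differences, Dock8-/- minus Dock8+/- (x axis; 1 point per measured gene, a bar at each list's median, dashed lines at 2-fold), for the laminin, integrin and linker genes, their companion lists and the cell type marker lists, with the number of measured genes in brackets. Among lists with more than 1 measured gene, the medians run from -3.68 for skeletal muscle and -2.26 for fibroblast markers to 0.63 for satellite glia and 0.99 for spinal cord and astrocyte markers.

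Markers of the other cells that bear basement membranes gave mixed values. Schwann cell and myelin markers, 11 of 12 measured, had 3 genes 2-fold or more lower and 1 higher, a median of -0.62, and a summed signal of 590.3 in Dock8-/- and 674.4 in Dock8+/-. Perineurial markers, 6 of 7 measured and including Itgb4 itself, had 3 at least 2-fold lower, a median of -0.98, and a summed signal of 35.0 in Dock8-/- and 54.9 in Dock8+/-. Satellite glia markers, all 11 measured, had 4 genes 2-fold or more higher and 1 lower, a median of 0.63, and a summed signal of 922.2 in Dock8-/- and 705 in Dock8+/-. Those 3 lists thus did not share a direction. Endothelial markers, 10 of 12 measured, had 0 past 2-fold in either direction and a median of -0.29. Mural cell markers, all 9 measured, had 1 past 2-fold in each direction and a median of -0.43. Skeletal muscle markers were dim on the Dock8-/- array: 7 of 15 were measured, 6 more were read in Dock8+/- alone, and the summed signal was 2.74 in Dock8-/- and 31.9 in Dock8+/-. Myh4 and Des fall in neither count and outside that sum. The brightest repeat-free probe of Myh4 had 3.63 in Dock8-/- and 1773 in Dock8+/-, and that of Des 20.4 in Dock8-/- and 13.3 in Dock8+/-. The part of these lists in the laminin, linker and integrin values was not tested.

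**Figure D5:**
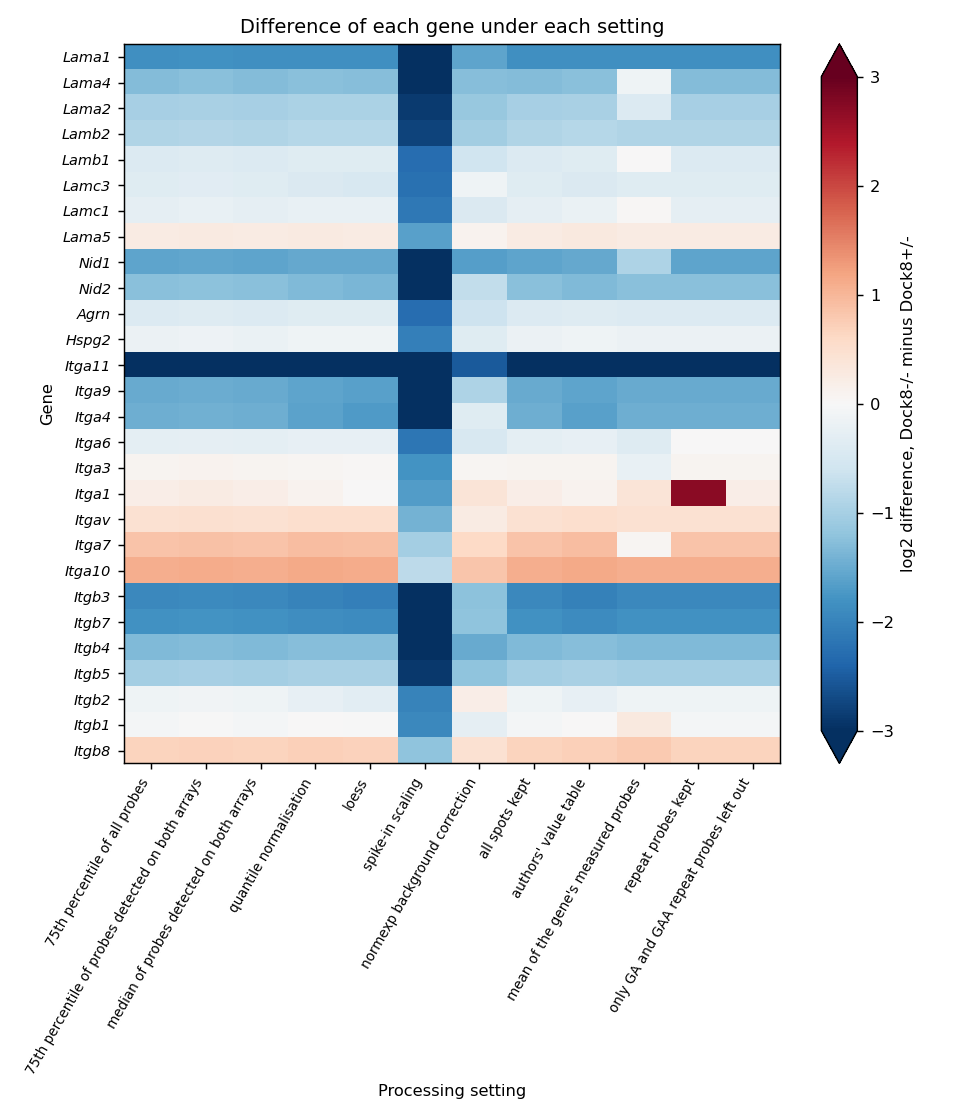
Scaled log2 difference, Dock8-/- minus Dock8+/-, of 28 of the 29 measured genes (rows) under each scaling, background and probe setting (columns), with blue for lower and red for higher in Dock8-/- and the colour scale ending at 3 in either direction. Spike-in scaling takes every plotted gene under 0, Itga10 to -0.79, normexp correction brings Itga4 to -0.36, and keeping repeat probes takes Itga1 to 2.71.

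The setting shifts the array-wide balance of differences: under loess 6.4% of all measured genes are 2-fold or more higher and 8.37% lower, against 3.37% higher and 4.73% lower under normexp. Of the 29 genes, 10 are at least 2-fold lower with either, while 1 is that much higher with loess and 0 with normexp. With spike-in transcripts as the scale, all genes shift by -1.88 and all 29 measured genes lie below 0, Lama5, Itga1, Itga3, Itga7, Itga10, Itgav and Itgb8 included. Of the 29, 28 are at least 2-fold lower and 0 are that much higher, where 88.6% of all measured genes are that much lower and 0.121% higher. Counts and directions above are therefore relative to the bulk of transcripts on each array, and 2 arrays limit the precision of each of them.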

How the data were processed

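Total RNA from DRG neurons was labelled with Cy3 and hybridised to 1 single-colour Agilent array per genotype, per the labels' protocols. The deposited scanner files hold spot intensity on a linear scale, background-corrected and detrended by Feature Extraction 10.7.1.1 per the file headers (9.5.1.1 per the submitters' processing notes). The value table the authors deposited also holds linear intensity. It was found to be quantile normalised (98.9% of sorted values equal in both columns, tolerance 0, each column's median 27.9) and to run with the scanner values (correlation of log2 values at least 0.999 across probes). None of scale, centring and direction stays unknown, and 0 value columns were left unused.

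Log2 processed intensity was averaged over spots, leaving out non-uniform spots (1 on the Dock8-/- and 3 on the Dock8+/- array; 0 were saturated), and each array's 75th percentile over the 56605 non-control probes was subtracted. Repeat-free was taken as no unit of 2 or 3 bases repeated 4 or more times, which 1438 probes have, 4 of them among the 103 member probes. All 41 symbols were found in a RefSeq table, which was used for names only. Probe positions are on mm9, per the file headers, and probe sequences are those of the scanner files. Exon and UTR annotation was not used here.

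With 1 array per genotype no test was made. The members, lists and alternatives were chosen with earlier results of these data known. Each member read on at least 1 array is named, except 1 gene that is counted but not reported here; from a companion list at most the 4 widest differences are, and from a marker list at most 2 genes. In all, 15 alternatives were planned and 2 were added after seeing the data. A member's value counted as moved past 0.0691, the SD for a difference of single spots (log2). R 4.3.3 with limma 3.58.1 (normexp offset 50, loess span 0.3) and Python 3.11.15 were used, and the computation was checked on simulated data.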

Additional observations from a re-analysis of the deposited data

How the results depend on the processing

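The median difference of the measured genes, -0.41, was -0.49 under loess, -0.59 under normexp background correction, -0.55 when detection on 1 array sufficed and -2.29 under spike-in scaling. The count at least 2-fold lower, 11, was 28 under spike-in scaling, 4 of 18 (5.23% of all genes so limited) among genes in the upper part of mean signal, from the median up (chosen after seeing the data), and 4 of 29 (2.3% of all) at 3-fold. It was 15 of 36 when detection on 1 array sufficed (12.1% of all), 15 of 39 with the positive and significant flag (8.66%), 16 of 41 with no filter on dim probes (7.55%) and 14 of 29 at 1.5-fold (17.2%), and lay between 9 and 11 under the other alternatives run. The count at least 2-fold higher, 1, was 0 under spike-in scaling, under normexp and at 3-fold, 2 when detection on 1 array sufficed (9.72% of all), with no filter on dim probes (14.4%), with the positive and significant flag (13.6%) or with only GA and GAA repeats left out (8.7%; added after seeing the data), and 3 with repeat probes kept (9.08%) or at 1.5-fold (20.5%). Itga10 turned to -0.79 under spike-in scaling, the only member 2-fold apart to change sign in any setting run. Of the 12 genes 2-fold apart, 8 stayed so under normexp, where Itga4 (-0.36), Itga9 (-0.92), Nid2 (-0.73) and Itga10 (0.84) did not. With the mean of probes 10 stayed so, but each of these 10 has only 1 measured repeat-free probe, so its value could not change. Lama4 and Nid1, the genes of the 12 with more than 1 such probe, fell short at -0.13 and -0.93. The number was 11 under the scalings where Itgb5 fell short and under spike-in scaling, and 12 under the other scalings and probe choices. Where an alternative moved a value, the cause was not tested. No paired analysis was possible because each genotype has 1 array, and no replicate could be left out. Dim signal limits the 12 genes not well above background on both arrays, for which only bounds or no values are given.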

Other observations

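Where a gene had more than 1 measured repeat-free probe, the brightest tended to lie below the others. Among the laminin, integrin and linker genes this held in 8 of 11, with a median gap of -0.45 (brightest minus the mean of the others, log2), and among all genes with several probes in 3345 of 5993 (55.8%), with a median gap of -0.09. The gap was -1.55 for Lama4 and -1.30 for Nid1, but 1.60 for Itga7.

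The same genes can be read along 1 RefSeq transcript, from the most downstream against the most upstream measured probe, a comparison chosen after the values were seen. Of the 8 members that allow it, the downstream probe lay lower in 6 (75%), with a median gap of -0.91, against 2109 of 3798 transcripts (55.5%) and a median gap of -0.09 over the array. For these 8 members the downstream probe is also the brightest, except for Lamc1, where it overlaps the brightest. For the members, this comparison thus largely repeats the one above and is not a separate observation. Lama4 had -1.29 at its downstream probe, with 236.9 in Dock8-/- and 1212 in Dock8+/-, and 0.01 at its upstream probe, with 236.7 in Dock8-/- and 490.9 in Dock8+/-. Lamb1 had -0.41 downstream and 0.50 upstream, and Lamc1 had -0.27 downstream and 0.64 upstream. Itga3 and Itga7 ran the other way, with Itga7 at 0.85 downstream and -0.75 upstream. The values of these genes thus depend on which probe is read, and the cause was not tested.

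Repeat probes other than GA also stood high in Dock8-/-. The 183 measured probes with at least 4 CA units had a median difference of 0.72, with 34.4% at least 2-fold higher, and the 13 with at least 4 TTG units had a median of 0.76. The TTG probe of Itga6 read 2911 in Dock8-/- and 6056 in Dock8+/-, a difference near 0, where the chosen Itga6 probe lay at -0.29.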
